A study of Mus musculus with 4 samples.

Results

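The genes described are 28 named members of hepatic cholesterol metabolism, taken from the 25572 loci of the authors' deposited table of mouse liver expression by matching each gene symbol to a locus, alone or within a combined locus. They comprise 8 genes of the mevalonate and isoprenoid steps, 11 of the squalene and sterol steps, 3 of uptake and transport, 4 of SREBP control and 2 of cholesterol esterification. All 28 had a row, and 27 were tested by the authors; Npc1l1 was too low to test. The libraries were 4, from livers of C57BL/6J mice aged 8 weeks: 2 labelled wild type (WT), the controls for the knockout, and 2 labelled Ern1-LKO, a liver-specific knockout of Ern1 (the gene for the endoplasmic reticulum stress sensor IRE1α). No treatment is labelled for either group, and the sources used here do not give the Cre driver, any floxed allele of the controls or the sex of the mice. Expression is the authors' FPKM (fragments scaled by transcript length and library size), with 1 pooled value for each genotype. Variation among mice is therefore hidden, and a single animal may carry a difference.

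Cholesterol is made from acetyl-CoA through mevalonate, isoprenoid diphosphates, squalene and lanosterol, largely by enzymes in the membrane of the endoplasmic reticulum (ER). Transcription of these enzymes is driven by SREBP2, which is made as an ER membrane protein bound to the escort SCAP. When ER sterol is plentiful, INSIG proteins hold SCAP in the ER; when it is scarce, COPII vesicles carry the complex to the Golgi, where proteases release the active factor. The liver is a main site of both synthesis and lipoprotein uptake of cholesterol.

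The tissue label was met by its markers: the 8 hepatocyte genes summed to 33804 FPKM in WT and 32829 in Ern1-LKO, with none called. Of 13320 tested loci the authors called 365 at an adjusted p (q) under 0.05. Ern1 itself stood at 21.4 and 30.2 FPKM, with q = 0.172 in the authors' deposited table; a gene-level value includes exons outside a deleted part, so it does not check the labels. Markers of other cells also lay apart between the genotypes. Stellate cell genes were above WT at 9 of 9 (summed 62.4 and 90.9 FPKM, 4 called higher: Lum, Col1a1, Col1a2 and Col3a1), and Kupffer cell genes at 10 of 10 (214 and 251 FPKM, none called). Adipocyte genes were above WT at 6 of 6 (19.5 and 39.5 FPKM), Retn alone being called. Fabp4 made up most of the WT sum, at 17.5 and 24.9 FPKM, with Cidec at 1.78 and 2.76. The others were near or at 0 in WT: Adipoq at 0.046 and 1.42 FPKM, Plin1 at 0.0067 and 0.64, and Retn at 0 and 2.06. Cfd, in a locus shared with many genes, stood at 0.17 and 7.66. The tested neutrophil genes were below WT at 3 of 3 (listed genes 22.7 and 12.7 FPKM, none called). Mpo, which was not tested, was listed at 0.0067 FPKM in WT and 0 in Ern1-LKO. Of the remaining lists, endothelial genes were above WT at 6 of 7 (99.4 and 106 FPKM, none called). Cholangiocyte genes were above WT at 4 of 5, but the listed genes summed to 40.7 and 34.9 FPKM, with Spp1 at 37.2 and 30.3. Lymphocyte genes were above WT at 3 of 6: Cd3e, Nkg7 and Cd4 (called higher) were above, and Cd3g, Cd79a and Cd79b below. Pancreatic acinar genes were above WT at 1 of 6, Cela1, at 46.4 and 58.5 FPKM, and the listed genes summed to 52.9 and 60.3. Prss2, Try4 and Pnlip were called lower, from 0.58, 0.74 and 0.60 FPKM in WT to 0 in Ern1-LKO. In these bulk samples fewer cells of a type and less RNA per cell cannot be told apart, and the part of other cells in the values that follow was not tested.

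The cholesterol genes lay on both sides of WT by role, and none of the 27 tested members passed the authors' threshold, where 2.74% of all tested loci did. The differences of smallest p were lower INSIG transcripts and higher transcripts of 5 synthesis enzymes. Insig2 and Insig1, which retain SCAP, stood in Ern1-LKO at 0.683 and 0.767 of their WT levels, while Hmgcs1, Msmo1, Mvk, Fdps and Dhcr7 stood between 1.27 and 1.41 times WT. At an unadjusted p under 0.05, 5 members were higher, where 5.74% of tested loci were, and 2 were lower, where 4.53% were. Above WT were 18 of the 27, or 66.7%, against 47.9% of all tested loci. Their median log2 fold change was 0.07, against -0.01 over all tested loci. For a single member the median implied standard error (SE) of the log2 fold change was 0.17. This SE was derived from the authors' test statistic and is the only error the table allows.

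**Figure D1:**
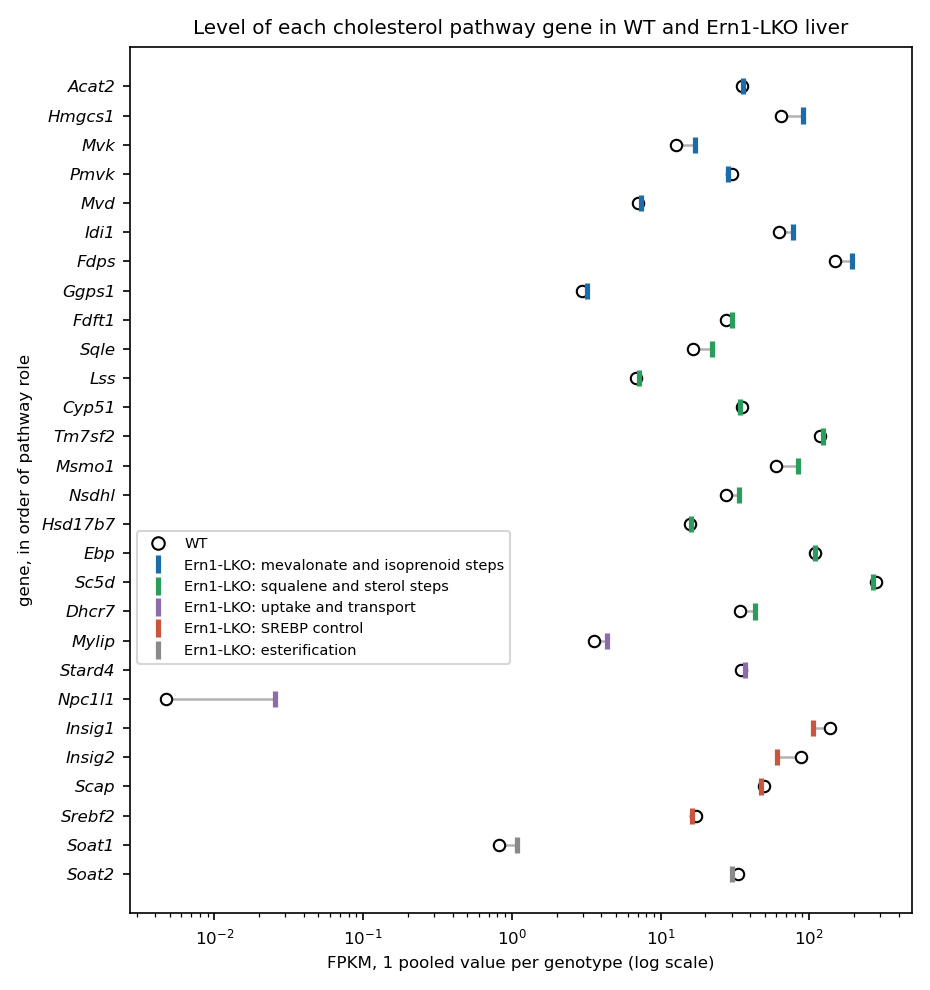
FPKM of each of the 28 genes on a log scale, with WT as open circles and Ern1-LKO as bars coloured by role, 1 pooled value per genotype. Levels span from Npc1l1, under 0.03 FPKM in both, to Sc5d at 283 and 270, and the 4 SREBP control genes have their Ern1-LKO bar to the left of WT.

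Among the mevalonate and isoprenoid enzymes, 7 of 8 were above WT, and their median log2 fold change was 0.20. Acat2, whose cytosolic thiolase joins acetyl-CoA units, stood at 35.5 FPKM in WT and 35.8 in Ern1-LKO, nearly the same level. Hmgcs1, the cytosolic HMG-CoA synthase (chromosome 13, 119690351 to 119708260, mm10), stood at 64.1 and 90.5 FPKM, a ratio of 1.41. In the authors' deposited table its log2 fold change is 0.50 (implied SE 0.16) at p = 0.00255, and its q of 0.0772 is the smallest of the synthesis enzymes. Mvk, mevalonate kinase (chromosome 5, 114444269 to 114460590), stood at 12.7 and 17.1 FPKM. This is a log2 fold change of 0.42 (implied SE 0.18) at p = 0.0216 (q = 0.310) by the authors' deposited table. The next enzymes of the route lay close to WT: Pmvk, phosphomevalonate kinase, at 30.1 and 28.5 FPKM, and Mvd, the decarboxylase that yields isopentenyl diphosphate, at 7.05 and 7.39.

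Idi1, the isomerase of isopentenyl diphosphate, stood at 62.7 and 77.3 FPKM, with p = 0.0716 in the authors' deposited table. Fdps, the farnesyl diphosphate synthase (chromosome 3, 89093584 to 89101967), was the most abundant of the 8, at 149 and 194 FPKM. For Fdps the authors' deposited table lists 0.38 as the log2 fold change (implied SE 0.17) at p = 0.0249 (q = 0.332). Ggps1, which makes geranylgeranyl diphosphate for protein prenylation, stood at 2.98 and 3.21 FPKM, the lowest of the 8. None of the 8 was called, and differences between these enzymes were not tested.

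Of the squalene and sterol enzymes, 8 of 11 were above WT, and their median log2 fold change was 0.07. Msmo1, the C4-methylsterol oxidase (chromosome 8, 64718145 to 64733578), stood at 59.4 and 83.4 FPKM, a ratio of 1.40. The log2 fold change of Msmo1 is 0.49 (implied SE 0.16) in the authors' deposited table, where p is 0.0038 (q = 0.103). Dhcr7, which reduces 7-dehydrocholesterol to cholesterol (chromosome 7, 143823167 to 143848410), stood at 34.2 and 43.4 FPKM. The log2 fold change of Dhcr7 is 0.34 (implied SE 0.16) in the authors' deposited table, where p is 0.0402 (q = 0.430). Nsdhl, the C4-decarboxylating dehydrogenase that works after the Msmo1 product, stood at 27.5 and 33.6 FPKM, with p = 0.0926 in the authors' deposited table. Hsd17b7, the ketoreductase of the same C4-demethylation, stood at 15.8 and 16.1 FPKM.

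Sqle, the squalene epoxidase, stood at 16.4 and 22.2 FPKM, with a log2 fold change of 0.44 (implied SE 0.22) and p = 0.0555 in the authors' deposited table. Fdft1, squalene synthase, stood at 27.5 and 30.3 FPKM, and its implied SE of 0.47 on the log2 scale was the largest of all members. Lss, which cyclises squalene epoxide to lanosterol, stood at 6.85 and 7.14 FPKM, and Cyp51, the lanosterol demethylase, at 35.1 and 34.4. The combined locus of Tm7sf2, a sterol C14 reductase, and Vps51 stood at 118 and 124 FPKM, and the table does not separate its genes. Ebp, the sterol isomerase, stood at 110.1 and 109.5 FPKM. Sc5d, the sterol C5 desaturase and the most abundant member (chromosome 9, 42248200 to 42264300), stood at 283 and 270 FPKM. In the authors' deposited table Sc5d has a log2 fold change of -0.07 (implied SE 0.18) at p = 0.700. The 95% interval for Sc5d from the implied SE runs from -0.43 to 0.28 on the log2 scale, so a log2 fold change of -0.34 would lie within it. The interval for Dhcr7 runs from 0.02 to 0.66 and overlaps that of Sc5d, and the difference between these genes was not tested.

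**Figure D2:**
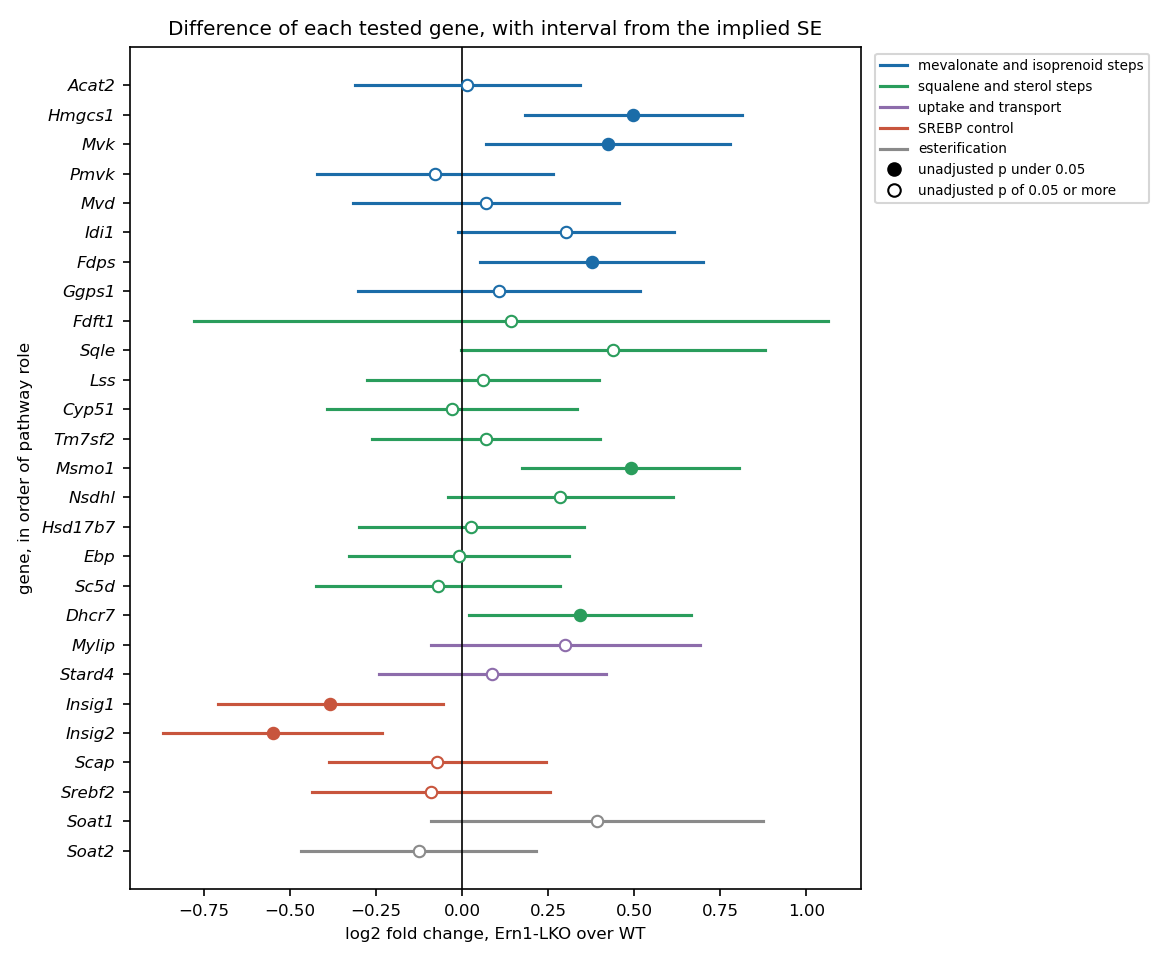
Log2 fold change of Ern1-LKO over WT for the 27 tested genes in pathway order, with 95% intervals from the implied SE; filled points have an unadjusted p under 0.05. The 5 filled synthesis genes lie between 0.34 and 0.50, and Insig1 and Insig2 lie at -0.38 and -0.55.

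The 4 genes of SREBP control were below WT at 4 of 4, and their median log2 fold change was -0.24. Insig2 (chromosome 1, 121304353 to 121332589) stood at 88.4 FPKM in WT and 60.4 in Ern1-LKO. In the authors' deposited table its log2 fold change is -0.55 (implied SE 0.16) at p = 0.00155, the smallest p of all members, and its q of 0.0534 lies just outside the threshold. Among 6167 expressed loci with an implied SE of at most 0.2, the smallest absolute log2 fold change that the authors called was 0.54, slightly below that of Insig2, which was not called. Insig1 (chromosome 5, 28071412 to 28078662), itself a known SREBP target, stood at 139 and 106 FPKM. This is a log2 fold change of -0.38 (implied SE 0.17) at p = 0.0211 (q = 0.304) by the authors' deposited table.

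Scap, the escort that INSIG proteins hold, stood at 49.5 and 47.1 FPKM, with a 95% interval from -0.39 to 0.24 on the log2 scale. Srebf2, which encodes SREBP2 and hosts the microRNA gene Mir33, stood at 17.2 and 16.2 FPKM, with an interval from -0.44 to 0.26. These intervals do not show that Scap and Srebf2 were the same in both genotypes. Per length, Insig1 and Insig2 together were at 227 FPKM in WT and 167 in Ern1-LKO, or 4.59 and 3.54 times the Scap level. Transcript levels do not measure the cleavage of SREBP2 or the abundance of INSIG protein.

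Upstream sequences are shown for Insig2 and Hmgcs1, the members of smallest p, which lay on opposite sides of WT. The plan was to show members at an unadjusted p under 0.05 that held the SRE-like motif described below. Hmgcs1 alone did, so the choice fell back on the smallest p. RefSeq (GRCm38.p6) gave start sites for 23 of the 28 members, 29 windows in all, and the 250 bases before each were searched on both strands for 5 motifs. Fdps, Fdft1, Sqle, Stard4 and Soat2 had no window and were not searched. These were an SRE-like motif bound by SREBP (TCACNCCAC), the E-box CACGTG, the NF-Y box CCAAT, the Sp1 box GGGCGG and the core of an XBP1-bound element (TGACGTGG), none of which overlap in the windows shown. Capitals mark every match, and lower case the rest, 5′ to 3′ on the gene's strand. The Hmgcs1 window is chr13:119690101-119690350 on the plus strand. The Insig2 windows are chr1:121332590-121332839 for the most upstream of its 3 start sites and chr1:121328025-121328274 for the next, both on the minus strand; the third window lies almost wholly within annotated exons and is not shown.
Hmgcs1: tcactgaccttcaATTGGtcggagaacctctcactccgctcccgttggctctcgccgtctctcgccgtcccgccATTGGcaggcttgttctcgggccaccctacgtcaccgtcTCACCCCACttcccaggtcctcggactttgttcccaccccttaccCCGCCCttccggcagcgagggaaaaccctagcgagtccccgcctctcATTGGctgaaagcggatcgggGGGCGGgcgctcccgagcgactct
Insig2 upstream start: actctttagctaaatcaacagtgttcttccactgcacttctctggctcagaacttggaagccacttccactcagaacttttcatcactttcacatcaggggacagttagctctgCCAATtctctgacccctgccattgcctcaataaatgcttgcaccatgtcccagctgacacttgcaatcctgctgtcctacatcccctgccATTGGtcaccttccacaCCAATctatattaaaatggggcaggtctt
Insig2 next start: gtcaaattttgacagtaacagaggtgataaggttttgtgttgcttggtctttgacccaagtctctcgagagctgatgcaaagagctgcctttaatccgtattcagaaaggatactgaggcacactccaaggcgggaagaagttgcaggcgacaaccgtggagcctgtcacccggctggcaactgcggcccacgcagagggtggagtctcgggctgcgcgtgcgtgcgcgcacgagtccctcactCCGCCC

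The Hmgcs1 window held the SRE-like motif from position -137, as TCACCCCAC, with 3 NF-Y and 2 Sp1 boxes around it. It was the single member window of 29 with that motif (3.45%), which 1.05% of 32851 mouse promoter windows held. The upstream Insig2 window held 3 NF-Y boxes and no other motif, and the next held 1 Sp1 box at its end. The table gives 1 value per gene, so which Insig2 start the difference belongs to is not measured. Of the 29 member windows, 72.4% held an NF-Y box and 72.4% an Sp1 box, against 33.8% and 32.7% of all windows. E-boxes were in windows of 5 members (17.2% of member windows against 6.02% of all), Dhcr7, Hsd17b7, Insig1, Sc5d and Scap. The XBP1-bound core was in 0 of the 29 windows and in 0.563% of all. With a motif this rare, 0 of 29 windows cannot tell the members from other genes. Matches are descriptions of letters within these windows and not measured sites.

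Transporters and esterification genes gave smaller or less certain differences. Mylip, a ubiquitin ligase that removes lipoprotein receptors and a known target of the oxysterol receptor LXR, stood at 3.55 and 4.37 FPKM. The authors' deposited table puts its log2 fold change at 0.30 (implied SE 0.20) and its p at 0.135. Stard4, a cytosolic sterol carrier, stood at 35.0 and 37.2 FPKM. Npc1l1, the intestinal cholesterol transporter, stood at 0.0047 and 0.026 FPKM and was not tested; of the enterocyte markers, Sis and Alpi were listed at 0 in both genotypes, Cdh17 and Vil1 stayed under 0.1 FPKM, and Fabp2 stood at 46.8 and 33.5. Soat2, the sterol acyltransferase of hepatocytes, stood at 33.2 and 30.4 FPKM, 40.2 and 28.1 times the level of its relative Soat1. Soat1, the form of macrophages and many other cells, stood at 0.83 and 1.08 FPKM, a log2 fold change of 0.39 (implied SE 0.25) at p = 0.125 in the authors' deposited table. Beside it, the median log2 fold change was 0.28 for the Kupffer cell markers, 0.52 for stellate, 0.37 for lymphocyte, 0.19 for cholangiocyte and 0.07 for endothelial markers. That of the adipocyte markers was 5.22 and that of the neutrophil markers -0.97. The part of any of these cells in the Soat1 value was not tested.

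**Figure D3:**
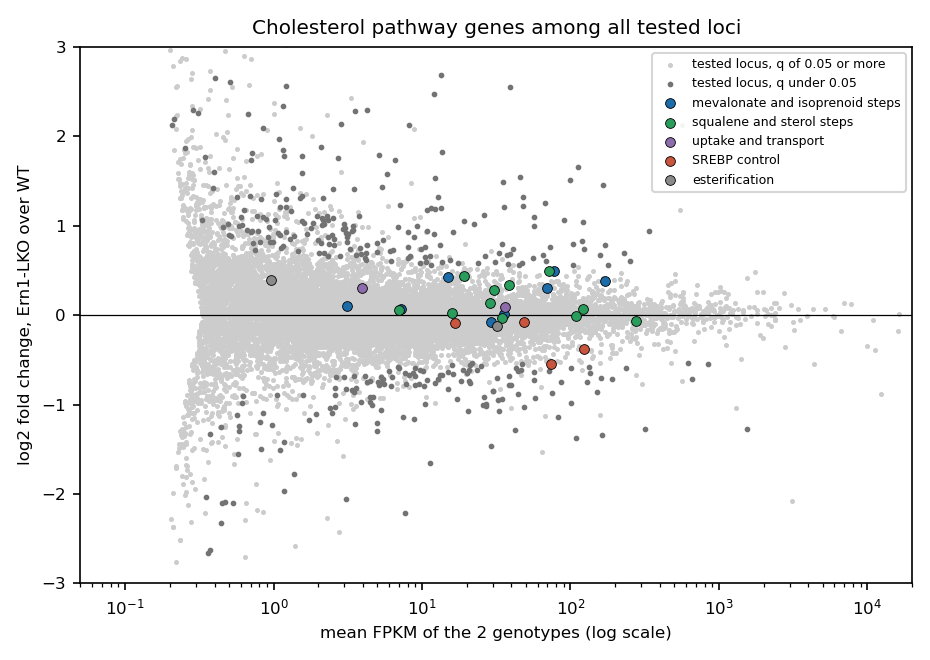
Log2 fold change of Ern1-LKO over WT against the mean FPKM of the 2 genotypes (log scale) for 13267 tested loci inside the axes; 37 lie outside and 16 have a 0 in a genotype. Cholesterol genes are coloured by role and lie within 0.55 of 0 on the log2 scale, while dark grey points mark loci with q under 0.05.

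Within the distribution of all tested loci the INSIG genes lay near the lower end and the leading enzymes near the upper. Insig2 and Insig1 stood at the 4.77 and 8.51 percentiles of log2 fold change among all tested loci, and Hmgcs1 and Msmo1 at the 91.7 and 91.4. Across the 27 tested members the log2 fold change and the log2 mean FPKM had a Pearson r of -0.24, a description over genes that share the same libraries. Of the members, 6 lie in loci that the table shares with other genes: Fdft1 with Ctsb, Sqle with Nsmce2 and E430025E21Rik, Lss with 4930483K19Rik, Cyp51 with Akap9, Tm7sf2 with Vps51, and Srebf2 with Mir33. Their values are uncertain, since how reads were divided among the genes of a shared locus is not stated. None of the 7 members with an unadjusted p under 0.05 is among these 6. Without the 6, the median log2 fold change of the squalene and sterol steps was 0.16, over 6 genes. That of SREBP control was -0.38, which is the Insig1 value, because dropping Srebf2 (-0.09) left 3 genes.

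Other genes of sterol metabolism, 61 in 7 lists, held 4 calls, 1 higher and 3 lower, where 1.58% of all tested loci were called higher and 1.16% lower. Of 10 COPII coat genes, whose vesicles carry SCAP and other cargo out of the ER, all were below WT (median log2 fold change -0.12) and 2 were called lower. Sec24c has only a combined locus with Fut11, so its value is uncertain. Sec23b fell from 19.1 to 10.8 FPKM and Sec24d from 19.9 to 12.6, with log2 fold changes of -0.82 (implied SE 0.18) and -0.66 (0.17) and q = 0.00343 and 0.00637 in the authors' deposited table. Of 11 other lipid genes known to respond to SREBPs, Lpin1, whose product makes diacylglycerol from phosphatidate, rose from 51.3 to 146 FPKM and Pnpla3, a lipid droplet protein, fell from 0.83 to 0.34. Their log2 fold changes in the authors' deposited table are 1.51 (implied SE 0.18) and -1.29 (0.29). The Pnpla3 locus is shared with Mir6392. In that list Aacs, the acetoacetyl-CoA synthetase, stood at 23.0 and 31.9 FPKM and Tmem97, a sterol-responsive ER protein, at 54.0 and 68.6, with p = 0.0056 and 0.0406 in the authors' deposited table, while Fasn, fatty acid synthase, stood at 92.0 and 70.7 with p = 0.0323; none of these 3 was called.

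The other 5 lists held no call. Of 8 genes of SREBP cleavage and sterol-regulated degradation 7 were below WT, Srebf1, which encodes SREBP1, having the smallest p at 88.4 and 74.1 FPKM (p = 0.146 in the authors' deposited table). The Srebf1 locus is shared with Rai1, Mir6921 and Mir6922, so its value is uncertain. LXR and sterol efflux genes were below WT at 5 of 7, Scarb1, the HDL receptor, standing in Ern1-LKO at 0.864 of its WT level (82.1 FPKM in Ern1-LKO). In that list Nr1h3 has only a combined locus with Madd, and Abcg5 and Abcg8 share a locus, so their values are uncertain. Lysosomal and cytosolic sterol carriers were above WT at 5 of 10, Stard5, in a locus shared with Il16, standing at 47.4 and 55.7 FPKM. Enzymes of isoprenoid branches, for dolichol, ubiquinone and protein prenylation, were above WT at 6 of 10, Dhdds, a dolichol synthase subunit, standing at 7.89 and 6.49 FPKM. A list of 5 further synthesis and receptor genes was above WT at 3; its median log2 fold change was 0.03, against a smallest q of 0.597 in the authors' deposited table.

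**Figure D4:**
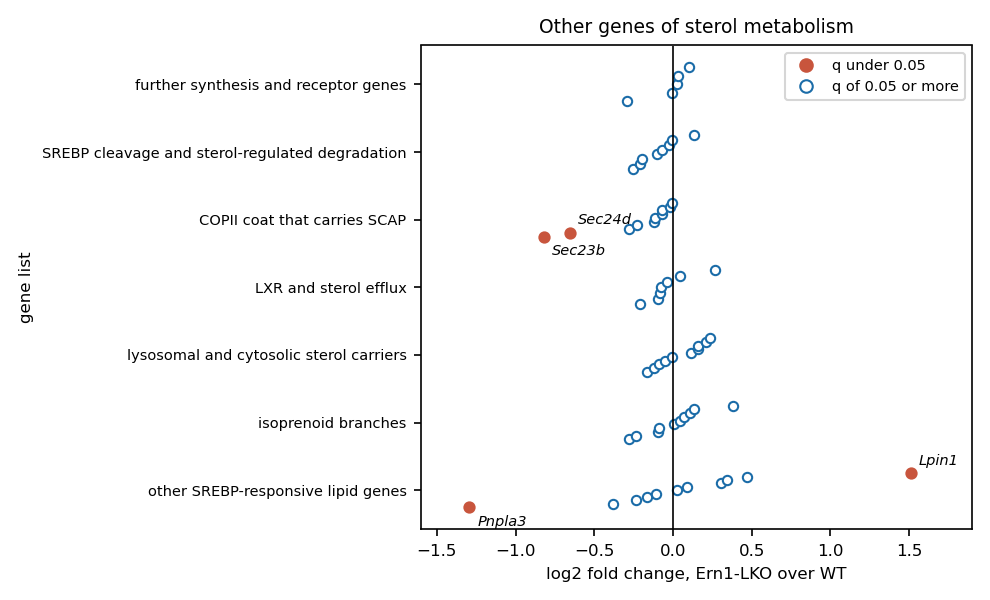
Log2 fold change of Ern1-LKO over WT for 61 other genes of sterol metabolism in 7 lists, each point 1 gene; filled points have a q under 0.05. The filled points are Sec23b at -0.82, Sec24d at -0.66, Pnpla3 at -1.29 and Lpin1 at 1.51.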

How the data were processed

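Liver RNA of 4 mice was profiled by RNA sequencing, 2 libraries per genotype; per the labels' protocols, NEBNext Ultra libraries were made from RNAiso-extracted total RNA. The submitters' processing notes list mm10, Cufflinks 2.2.1, TopHat2 2.0.14, FastQC 0.11.3 and bcl2fastq without roles; annotation, scaling and strand handling are unstated there. The authors' deposited table holds, per the file headers, 1 FPKM value per genotype and locus, their log2 fold change, test statistic (a signed score), p-value and q-value. A gene is called at the authors' q under 0.05; lacking values per library, it allows no test across animals and leaves the read depth unknown. The implied SE is the size of the log2 fold change divided by that of the statistic and multiplied by ln 2; its z over that of the deposited p had a median of 1.02 (5th to 95th percentile 0.990 to 1.07). Starts were made 1-based by adding 1, which then equalled GENCODE M21 starts at 6503 symbols, against 627 as deposited.

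Members and lists were chosen with earlier results of these data known. Full values are given for members at p under 0.05, the 3 of highest mean FPKM and the smallest p of each role; of other lists, called genes or else that of smallest p are named, except that members of 1 list are not reported here, and Aacs, Tmem97 and Fasn were added after their values were seen. Expressed loci had an FPKM of at least 1 in either genotype. Alternatives were pseudocounts, FPKM minimums, q thresholds, centring and locus filters. Tools were matplotlib 3.10.9, scipy 1.17.1, pandas 2.3.3, numpy 2.4.6 and Python 3.11.15. The p adjustment and the direction of calls were run on simulated data, which cannot check the authors' deposited p and q or the implied SE.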

Additional observations from a re-analysis of the deposited data

How the results depend on the processing

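Of 63 alternative values for the counts of members and their medians, 2 turned their direction and 1 count moved beyond 1.5 times, but several medians also moved in size. At a q threshold of 0.1, 2 members were called, Insig2 and Hmgcs1, against 0 at 0.05. Adjusting over the 10931 expressed loci alone called 0 members, with Insig2 at q = 0.0507. The median log2 fold change of the 2 esterification genes, 0.13, turned to -0.13 with a mean FPKM of at least 1 or of at least 5, since Soat1 then drops out and Soat2 alone remains, and was 0.03 on the log2(FPKM + 1) scale. The median of the 2 tested uptake and transport genes, 0.19, was 0.09 with a mean FPKM of at least 5, which leaves Stard4 alone. Centring the log2 fold changes on the median of expressed loci (-0.02) moved the count at p under 0.05 from 5 to 7 higher and left 2 lower, with p from a normal approximation; the uncentred approximation, added after seeing the data, gave 5 and 2. Leaving out the 6 members in shared loci, also added after seeing the data, gave 5 higher and 2 lower of 21, with the median of the synthesis enzymes at 0.20 instead of 0.11, that of the squalene and sterol steps at 0.16 instead of 0.07 and that of SREBP control at -0.38 instead of -0.24. The move of SREBP control comes from Srebf2 alone dropping out, which leaves Insig1, Insig2 and Scap. No paired analysis was possible because each genotype has a single pooled value, which also means that no replicate could be left out in turn. A pair of animals per genotype and an unknown depth limit all values.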
